A study of Mus musculus with 11 samples.

Results

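Autophagy delivers cytoplasm and organelles to the lysosome, and 41 genes of its machinery were followed here in C2C12 cells, a mouse myoblast line that forms multinucleated myotubes when serum is withdrawn. The genes were chosen by name, from the kinases that start an autophagosome to the lysosome that receives it, and all 41 were found among the 15113 genes of the deposited count table. The shDRP1 libraries (n = 5) came from cells carrying a short hairpin RNA that targets Drp1, a GTPase needed for mitochondria to divide, and the shRandom libraries (n = 6) from cells with a random hairpin. Both groups were labelled early-stage myotubes at passages 2 to 5, and no further treatment was named. The sources used here do not give the vector, its promoter, the number of clones or whether each library had its own culture. The p-values therefore rest on library-to-library spread alone, which may be technical. The series title sets the question of how Drp1 acts on substrate oxidation and calcium in muscle. Mitophagy, the removal of mitochondria by autophagy, is linked to division, because small mitochondria are engulfed more readily than long networks.

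An autophagosome forms in steps. The ULK1 kinase complex activates a lipid kinase complex around Becn1, its lipid product PI3P recruits WIPI proteins, and membrane is supplied by the ATG2 and ATG9 proteins. A pair of ubiquitin-like systems then attaches proteins of the ATG8 family to the membrane, where cargo receptors dock, and the closed vesicle fuses with a lysosome. In skeletal muscle this pathway is known for clearing damaged mitochondria and for its control by TFEB and FOXO transcription factors.

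Messenger RNA was counted from tags at the 3′ end of each transcript, so a level is given as CPM, the count relative to the TMM-scaled library size, and needs no division by gene length. Total counts ran from 12277622 to 20706327 in shDRP1 and from 15702942 to 23082617 in shRandom libraries. Dnm1l, which encodes Drp1, had 19.1, 14.5, 18.1, 21.0 and 20.6 CPM in the shDRP1 libraries, against 67.1, 83.0 and 86.3 CPM at the lowest, the median and the highest of the shRandom libraries. The shDRP1 mean was 23.7% of the shRandom mean, a log2 fold change of -2.07 (SE 0.11, adjusted p = 2.72e-10 by edgeR). Along the second principal component of all tested genes, shDRP1 replicate 2 (-32.5) and shRandom replicate 1 (-30.9) lay apart from the other libraries, which ran from -12.4 to 27.7. The label of early-stage myotubes was not borne out alike: all 10 myotube markers were lower in shDRP1 libraries, with a summed level of 151.8 to 211.4 CPM, against 12092 to 13574 CPM in shRandom libraries. No myotube marker was at 0 in any library. Of 4 myoblast markers 3 were lower and 1, Myf5, was higher, and Pax7 reached 0 in the lowest shDRP1 library, with sums of 35.6 to 49.8 CPM in shDRP1 and 390.8 to 450.2 CPM in shRandom libraries. Of 5 fibroblast markers measured, 4 were higher, with sums of 9076 to 15110.3 CPM in shDRP1 and 3065 to 3621 CPM in shRandom libraries. The collagens Col1a2 (means 6809 and 1844 CPM in shDRP1 and shRandom libraries) and Col1a1 (3968 and 1429 CPM) made up most of these sums. Lum drew only 82 and 37 counts, and Pdgfra changed by -0.10 (adjusted p = 0.597 by edgeR). The markers measured for adipocytes (1 of 4), macrophages (2 of 4) and endothelial cells (1 of 4) summed to at most 2.75 CPM in any library. The part of these marker shifts in the results below was not tested, and in bulk RNA fewer cells of a type cannot be told apart from less RNA per cell.

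Most of the 41 genes moved by little, and more of them were lower than higher. With edgeR's quasi-likelihood test and a Benjamini-Hochberg adjusted p under 0.05 over all 13025 genes tested, 20 of the 41 fell (48.8%) in shDRP1 libraries, where 33.3% of all tested genes fell, and 7 rose (17.1%), where 33.9% of all rose. All 41 passed the filter on low counts, and 14 did not pass the test. The share called in either direction, 65.9%, was near the 67.1% of all genes. These shares of all genes are also the background for the counts of each step below. Changes of 2-fold were few: 1 of the 41 genes (2.44%), Optn, was called with a change of at least 2-fold, against 24.9% of all genes tested. The median absolute log2 fold change was 0.27 for the 41 genes and 0.47 over all tested genes. The signed median was -0.20 for the 41 genes and 0.03 over all tested genes. For 16 genes the libraries were fully apart (39.0%, against 48.9% of all genes): 10 were lower in every shDRP1 library (24.4%, against 25.4%) and 6 were higher (14.6%, against 23.5%). Scaled by library totals, 9 genes rose and 11 fell, and with upper quartile factors 9 rose and 13 fell. Those scalings moved the median of all genes to 0.13 and 0.12. Relative to it the median of the 41 genes was -0.24 under all 3 scalings. A change of scaling shifts all genes nearly alike, so this difference could hardly move and is no check of the counts. Together the 41 genes summed to 4309 to 4559 CPM in shDRP1 and 4749 to 5141 CPM in shRandom libraries. As a percent of raw library totals the groups overlapped, at 0.443% to 0.471% in shDRP1 and 0.464% to 0.499% in shRandom libraries.

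**Figure D1:**
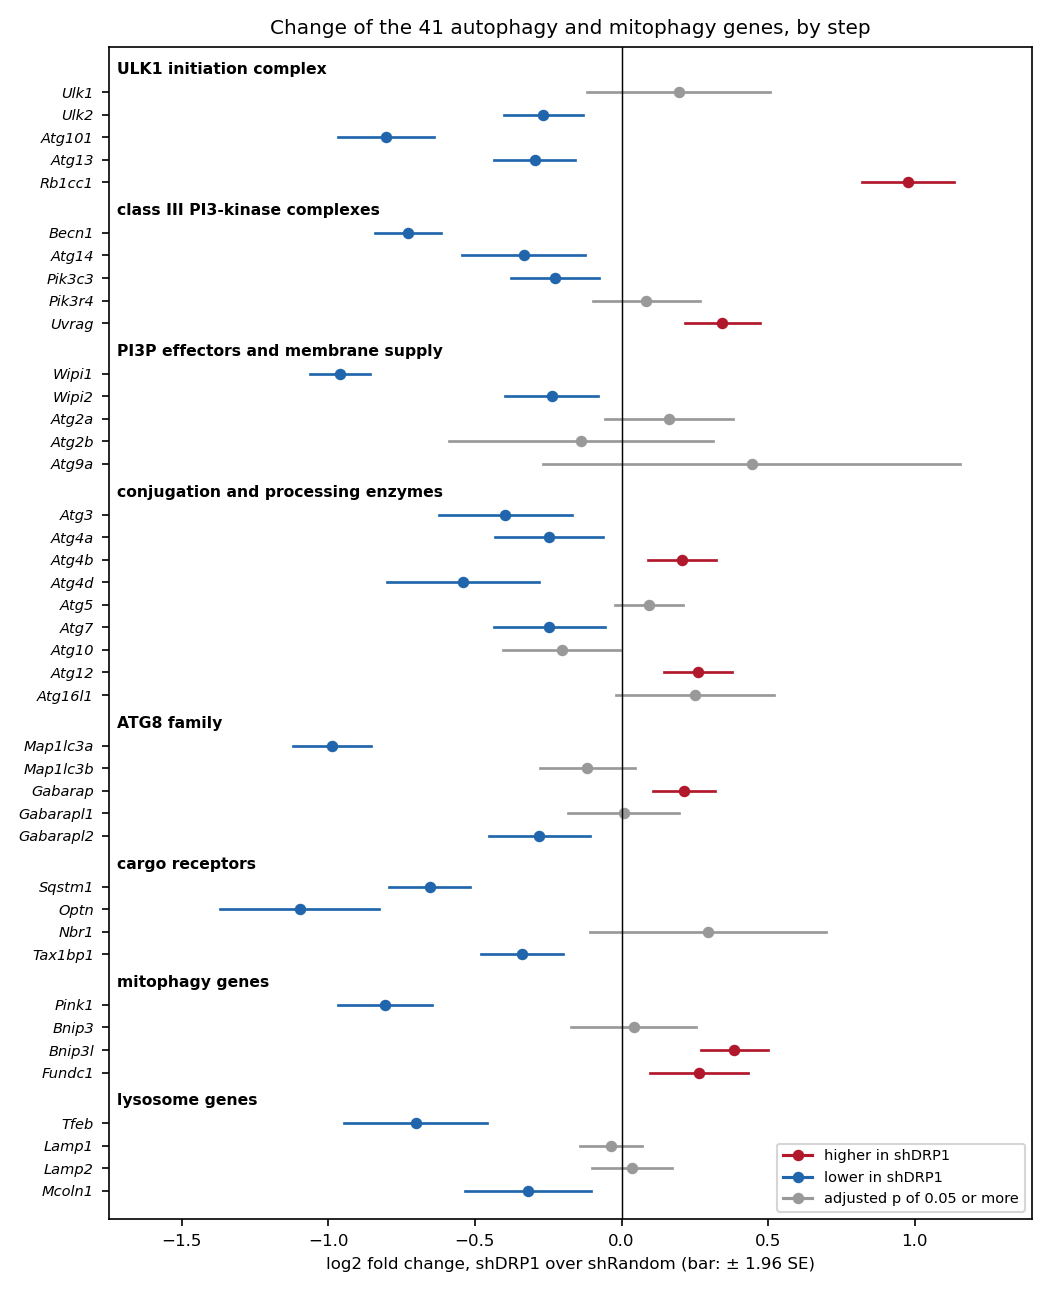
Each point is the log2 fold change of 1 gene, shDRP1 over shRandom libraries (5 and 6 libraries), and its bar is about a 95% interval. Red genes were higher and blue genes lower at an adjusted p under 0.05 and grey genes did not pass; Rb1cc1 is the farthest to the right among the red genes and Optn the farthest to the left.

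The ULK1 complex, which starts autophagosome formation, changed in opposite directions within itself: of 5 genes 1 rose and 3 fell. Its scaffold Rb1cc1 (chromosome 1, 6206197 to 6276648, plus strand of GRCm38) had 439.5, 452.4, 342.7, 441.9 and 466.7 CPM in the 5 shDRP1 libraries. In the shRandom libraries it had 190.8, 219.8 and 236.9 CPM at the lowest, the median and the highest. Every shDRP1 library was above every shRandom library, also replicate 3, the lowest of its group. The mean was 1.97 times that of shRandom libraries and the log2 fold change came to 0.98 (SE 0.08, adjusted p = 6.02e-08 by edgeR), the largest of the 7 rises. A near-identical copy, Gm13961, drew only 34 counts in shDRP1 and 24 in shRandom libraries.

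Atg101, which stabilises the Atg13 subunit, went the other way (chromosome 15, 101284272 to 101290945, plus strand). It had 59.1, 52.2, 61.9, 72.6 and 64.4 CPM in shDRP1 libraries, against 95.5, 108.1 and 120.0 CPM at the lowest, the median and the highest of the shRandom libraries, with no overlap. Its log2 fold change came to -0.80 (SE 0.08, adjusted p = 8.42e-07 by edgeR). The adaptor Atg13 had 24.9, 25.3, 26.7, 25.4 and 24.9 CPM in shDRP1 and, at the lowest, the median and the highest, 29.0, 30.3 and 36.3 CPM in shRandom libraries. The groups did not overlap, and the change was -0.30 (SE 0.07, adjusted p = 0.00184 by edgeR). Within each library, Rb1cc1 was at 7.44, 8.67, 5.54, 6.09 and 7.25 times the level of Atg101 in shDRP1 libraries and at 2.02 ± 0.170 times in shRandom libraries (SD, n = 6). Of the kinases, Ulk2 fell by a small amount, to 37.6 ± 1.19 CPM (SD, n = 5) in shDRP1, against 45.2 ± 3.96 CPM (SD, n = 6) in shRandom libraries (adjusted p = 0.00318, edgeR). With library totals alone its adjusted p was 0.0561. Ulk1 had a log2 fold change of 0.19 (SE 0.16, adjusted p = 0.294 by edgeR), with an interval of -0.12 to 0.51 that spans 0.

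In the lipid kinase complexes around Becn1, 3 of 5 genes fell and 1 rose, or 1 fell and 1 rose with library totals or upper quartile factors. Becn1, their shared scaffold (chromosome 11, 101285952 to 101302286, minus strand), had 75.4, 81.6, 86.4, 85.0 and 75.2 CPM in shDRP1 libraries. Its shRandom libraries had 127.5, 132.8 and 140.9 CPM at the lowest, the median and the highest. The groups lay far apart and the shDRP1 mean was 60.4% of the shRandom mean, a log2 fold change of -0.73 (SE 0.06, adjusted p = 4.11e-08 by edgeR). The subunits that tell the kinase complexes apart moved in opposite directions. Atg14, which directs the kinase to the forming autophagosome, had 23.1, 15.3, 17.9, 23.2 and 21.1 CPM in shDRP1 and, at the lowest, the median and the highest, 22.4, 25.8 and 27.8 CPM in shRandom libraries. The groups overlapped, since shDRP1 replicates 1 and 4 were above the lowest shRandom library, and the change was -0.33 (SE 0.11, adjusted p = 0.013 by edgeR). Uvrag, which takes the place of Atg14 in the endosomal complex, had 25.6, 25.4, 26.8, 26.0 and 27.9 CPM in shDRP1 and 19.6, 20.6 and 22.1 CPM in shRandom libraries, in the same order of lowest, median and highest for the second group. It was higher in every shDRP1 library, by 0.34 (SE 0.07, adjusted p = 3.09e-04 by edgeR). The catalytic subunit Pik3c3 was at 18.7 ± 1.19 CPM (SD, n = 5) in shDRP1 and 22.0 ± 1.59 CPM (SD, n = 6) in shRandom libraries (adjusted p = 0.0172, edgeR). The regulatory subunit Pik3r4 was at 24.4 ± 2.42 and 22.99 ± 2.43 CPM in shDRP1 and shRandom libraries (interval of the log2 fold change -0.10 to 0.27). The calls of Atg14 and Pik3c3 were lost with library totals (adjusted p = 0.0507 and 0.123, edgeR) and with upper quartile factors (0.0517 and 0.114), and that of Pik3c3 with the replicate number as a block (0.0529).

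Among the PI3P effectors and membrane suppliers, Wipi1 had the smallest adjusted p of all 41 genes. This PI3P-binding protein (chromosome 11, 109573331 to 109611967, minus strand) had 207.7, 217.2, 229.8, 234.6 and 227.2 CPM in shDRP1 libraries, against 416.0, 437.0 and 451.1 CPM at the lowest, the median and the highest in shRandom libraries. The groups were far apart, the shDRP1 mean was 51.4% of the shRandom mean, and the log2 fold change came to -0.96 (SE 0.05, adjusted p = 6.36e-10 by edgeR). Wipi2, which binds Atg16l1 and so places the conjugation machinery, changed far less. It had 100.7, 87.3, 100.1, 118.7 and 117.9 CPM in shDRP1, against 112.9, 124.8 and 134.0 CPM at the lowest, the median and the highest in shRandom libraries. The groups overlapped and the change was -0.24 (SE 0.08, adjusted p = 0.0182 by edgeR), a call that was lost with library totals (adjusted p = 0.101), upper quartile factors (0.111) and the replicate block (0.0537, all edgeR). Wipi1 was at 2.15 ± 0.236 times the level of Wipi2 in shDRP1 (SD, n = 5) and 3.52 ± 0.258 times in shRandom libraries (SD, n = 6). The lipid transfer gene Atg2a had 20.6, 20.7, 23.8, 26.7 and 24.2 CPM in shDRP1 and 17.5, 19.7 and 26.9 CPM at the lowest, the median and the highest in shRandom libraries. The groups overlapped throughout and the change was 0.16 (SE 0.11, adjusted p = 0.216 by edgeR); with library totals and without shRandom replicate 4 it passed (adjusted p = 0.0410 and 0.0316). Its partner Atg2b had a change of -0.14 (interval -0.59 to 0.31). The membrane carrier Atg9a had few counts, 89 in all shDRP1 and 81 in all shRandom libraries. Gm29253 overlaps its end on the same strand, matches it there and is not among the counted genes. Whether reads of Atg9a were lost through this overlap was not tested, so its low count may not be its true level.

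The conjugation and processing enzymes split, with 2 of 9 genes higher and 4 lower, none by 2-fold. The balance turned with the scaling, to 3 higher and 1 lower with library totals and 4 higher and 2 lower with upper quartile factors. Atg12, the ubiquitin-like protein joined to Atg5, had 104.3, 110.4, 116.2, 114.3 and 105.6 CPM in shDRP1 libraries, against 83.8, 92.9 and 99.8 CPM at the lowest, the median and the highest in shRandom libraries. Each shDRP1 library was above each shRandom library, by a log2 fold change of 0.26 (SE 0.06, adjusted p = 0.0014 by edgeR). The ATG4 proteases, which trim ATG8 proteins and release them again, did not move together. Atg4b had 60.7, 64.7, 69.7, 64.6 and 59.8 CPM in shDRP1 and 52.1, 56.6 and 57.4 CPM in shRandom libraries (lowest, median, highest). It was higher with no overlap, by 0.21 (SE 0.06, adjusted p = 0.00676 by edgeR). Atg4d had 9.05, 8.43, 8.45, 9.28 and 13.3 CPM in shDRP1 and 12.8, 13.4 and 17.5 CPM in shRandom libraries, given the same way. Only shDRP1 replicate 5 reached the shRandom range, and the change was -0.54 (SE 0.13, adjusted p = 0.00224 by edgeR). The opposite-strand gene Kri1 overlaps the end of Atg4d and fell as well (log2 fold change -0.46, adjusted p = 5.52e-04, edgeR), so the reads of the pair cannot be told apart if strand was not used in counting.

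Atg4a had a log2 fold change of -0.25 (SE 0.09, adjusted p = 0.0316 by edgeR) and Atg7, the activating enzyme of both conjugation systems, one of -0.25 (SE 0.10, adjusted p = 0.0348 by edgeR), but neither call held under all alternatives. Atg4a lost it with library totals, upper quartile factors, the stricter filter and without any of shDRP1 replicates 1, 2 and 4 and shRandom replicate 2. Atg7 lost it in 13 alternatives, with adjusted p from 0.0517 to 0.156, among them leaving out any of shDRP1 replicates 1, 2, 3 and 5 or shRandom replicates 2, 4 and 6. Atg3, which transfers ATG8 proteins to lipid, was at 28.6 ± 4.57 CPM (SD, n = 5) in shDRP1 and 37.6 ± 5.25 CPM (SD, n = 6) in shRandom libraries, a change of -0.40 (SE 0.12, adjusted p = 0.00788 by edgeR) that library totals took to an adjusted p of 0.0527. Atg5 was at 65.8 ± 3.86 and 61.7 ± 2.94 CPM, Atg10 at 18.7 ± 2.33 and 21.6 ± 2.38 CPM and Atg16l1 at 19.8 ± 2.89 and 16.6 ± 3.27 CPM in shDRP1 and shRandom libraries, and none of these passed. Atg5 passed as higher with library totals (adjusted p = 0.00535) and upper quartile factors (0.0142), and Atg16l1 with upper quartile factors (0.0443) and without shRandom replicate 1 (0.0314). Atg10 passed as lower without shDRP1 replicate 3 (0.0341) or shRandom replicate 4 (0.0273, all edgeR).

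**Figure D2:**
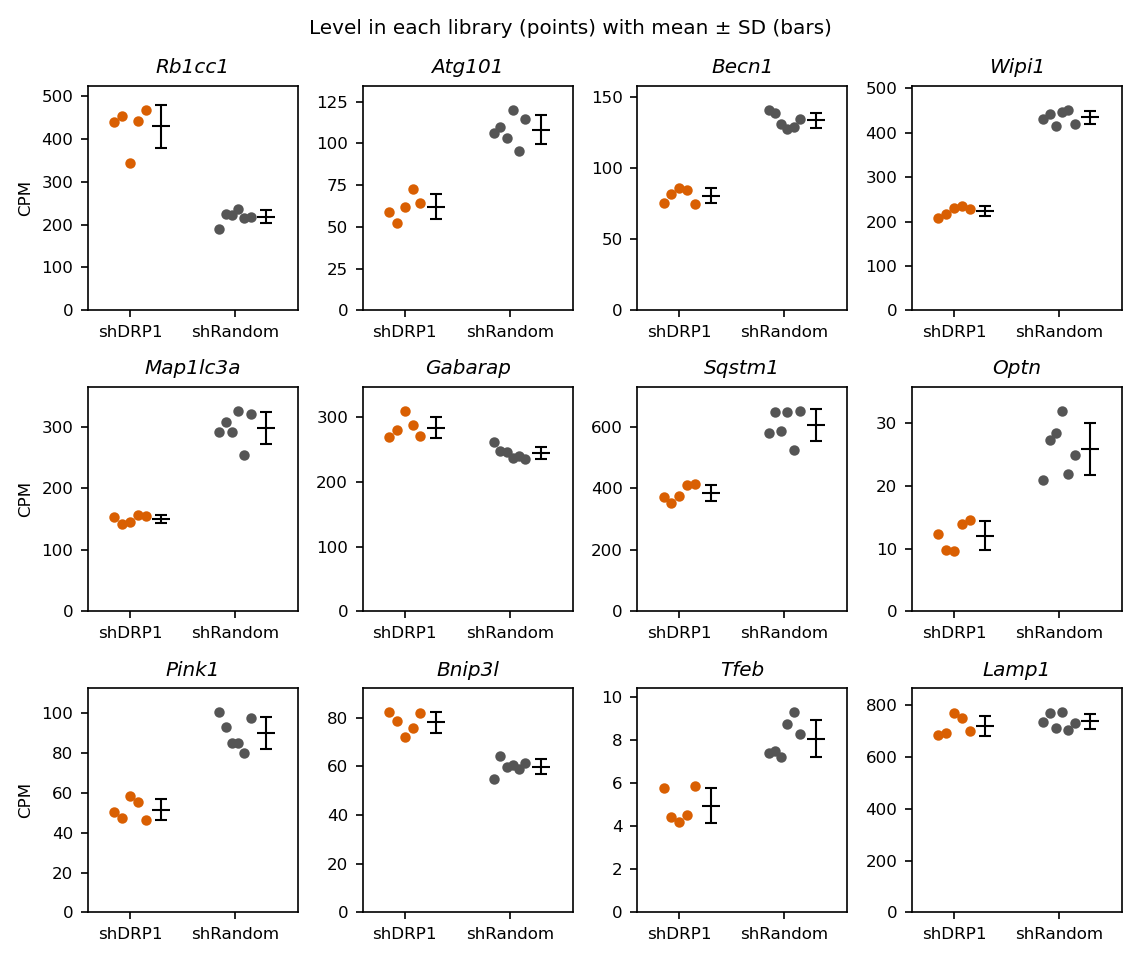
Each point is the level of a gene in 1 library, in CPM on an axis that starts at 0, with shDRP1 libraries left and shRandom libraries right and the mean ± SD of each group beside them. Rb1cc1, Gabarap and Bnip3l are higher in every shDRP1 library, Lamp1 overlaps, and the other 8 genes are lower in every shDRP1 library.

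ATG8 proteins, which coat the autophagosome membrane and dock receptors, changed unequally, with 1 of 5 genes higher and 2 lower. Map1lc3a (chromosome 2, 155276297 to 155278073, plus strand) had 153.7, 142.1, 145.2, 157.4 and 155.6 CPM in shDRP1 libraries. It had 254.4, 300.0 and 326.0 CPM at the lowest, the median and the highest in shRandom libraries. The highest shDRP1 library was well below the lowest shRandom library, and the change was -0.99 (SE 0.07, adjusted p = 8.58e-09 by edgeR). Its close relative Map1lc3b was at 275.4 ± 29.8 CPM (SD, n = 5) in shDRP1 and 298.6 ± 28.3 CPM (SD, n = 6) in shRandom libraries, with a log2 fold change of -0.12 (SE 0.08, adjusted p = 0.228 by edgeR). The ratio of Map1lc3a to Map1lc3b was 0.606, 0.567, 0.458, 0.529 and 0.602 in the shDRP1 libraries, against 0.878 to 1.07 in the shRandom libraries. The pair was thus near parity in shRandom libraries, and Map1lc3a was the less abundant in every shDRP1 library. The opposite-strand gene Zcchc14 overlaps the end of Map1lc3b and had 12.4 CPM in shDRP1 and 4.39 CPM in shRandom libraries.

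Gabarap, founder of the other ATG8 branch, had 269.1, 280.1, 309.4, 288.4 and 270.4 CPM in shDRP1 and, at the lowest, the median and the highest, 235.3, 243.7 and 260.8 CPM in shRandom libraries. It was higher without overlap, by 0.21 (SE 0.05, adjusted p = 0.00309 by edgeR). Gabarapl2 had 26.9, 26.0, 31.0, 34.4 and 34.3 CPM in shDRP1 and 33.8, 38.3 and 39.4 CPM in shRandom libraries, given in the same way. The groups overlapped at shDRP1 replicates 4 and 5, the change was -0.28 (SE 0.09, adjusted p = 0.0113 by edgeR), and it was lost with library totals and upper quartile factors (adjusted p = 0.0594 and 0.0639, edgeR). Gabarapl1 was at 129.7 ± 21.1 and 129.1 ± 9.76 CPM in shDRP1 and shRandom libraries, with an interval of the log2 fold change from -0.18 to 0.20 and a sign that differed between settings.

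**Figure D3:**
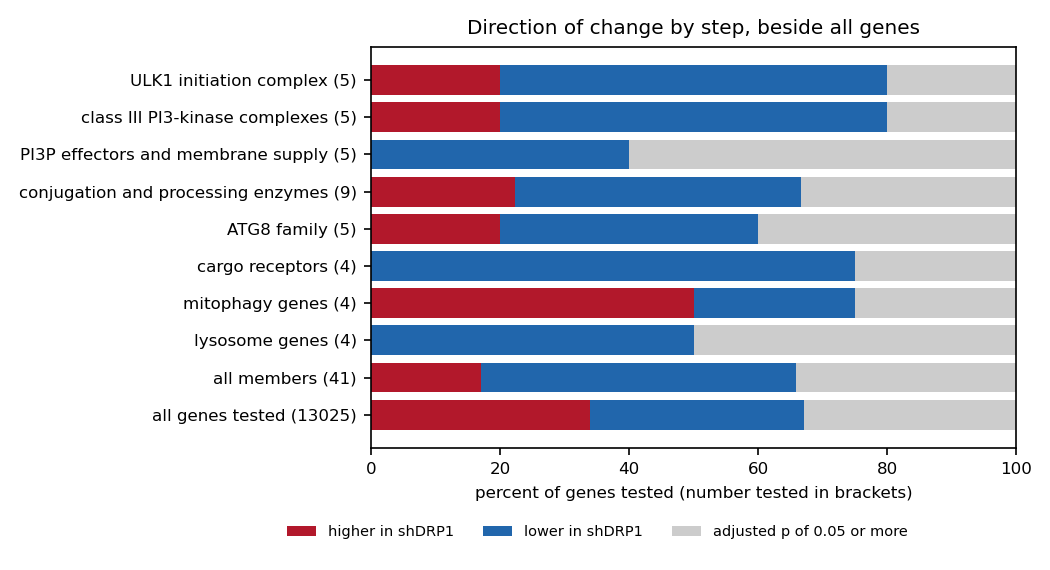
Each bar gives, for 1 step of the pathway, the percent of genes tested that were higher (red), lower (blue) or not past an adjusted p of 0.05 (grey) in shDRP1 against shRandom libraries, with the number tested in brackets. The mitophagy genes are the step with more genes higher (2) than lower (1), and all 41 genes together show less red than the 13025 genes tested.

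Of the 4 cargo receptors, which link ubiquitin-marked cargo to ATG8 proteins, 3 fell and none rose. Sqstm1, the sequestosome protein that gathers ubiquitinated cargo (chromosome 11, 50199366 to 50210827, minus strand), had 371.8, 353.1, 376.2, 410.0 and 414.0 CPM in shDRP1 libraries. Its level in shRandom libraries was 525.0, 616.0 and 650.4 CPM at the lowest, the median and the highest. No library overlapped and the change was -0.65 (SE 0.07, adjusted p = 1.25e-06 by edgeR). Optn, or optineurin, a main receptor of ubiquitin-dependent mitophagy (chromosome 2, 5020642 to 5064051, minus strand), had 12.4, 9.82, 9.63, 14.0 and 14.6 CPM in shDRP1 and 21.0, 26.1 and 31.9 CPM in shRandom libraries, ordered as above. The groups did not overlap, and its change of -1.10 (SE 0.14, adjusted p = 6.14e-06 by edgeR) was the lowest of the 41 genes. Tax1bp1 had 280.4, 255.0, 243.6, 287.7 and 296.5 CPM in shDRP1 libraries, against 295.0, 350.6 and 367.1 CPM at the lowest, the median and the highest in shRandom libraries. The groups overlapped only through shRandom replicate 1, and the change was -0.34 (SE 0.07, adjusted p = 6.67e-04 by edgeR). Nbr1 was at 52.0 ± 15.98 CPM (SD, n = 5) in shDRP1 and 42.4 ± 10.5 CPM (SD, n = 6) in shRandom libraries, with a log2 fold change of 0.29 (SE 0.21, adjusted p = 0.22 by edgeR). Summed over the 4 receptors, levels were 688.8 to 757.5 CPM in shDRP1 and 938.6 to 1079 CPM in shRandom libraries.

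Of the 4 mitophagy genes, 2 rose and 1 fell. Pink1, the kinase that marks depolarised mitochondria for ubiquitin-dependent removal (chromosome 4, 138313409 to 138326307, minus strand), had 50.3, 47.3, 58.3, 55.6 and 46.2 CPM in shDRP1 libraries. In shRandom libraries it had 79.9, 89.1 and 100.6 CPM at the lowest, the median and the highest. The groups were apart and the change was -0.81 (SE 0.08, adjusted p = 6.02e-07 by edgeR). The outer-membrane receptor Bnip3l, which binds ATG8 proteins directly and is known for clearing mitochondria in maturing red cells, went up (chromosome 14, 66985239 to 67008877, minus strand). It had 82.4, 78.6, 72.2, 75.6 and 82.1 CPM in shDRP1 and 55.0, 60.1 and 64.1 CPM in shRandom libraries at the lowest, the median and the highest. Each shDRP1 library exceeded each shRandom library, by 0.38 (SE 0.06, adjusted p = 3.92e-05 by edgeR). Fundc1, a receptor of hypoxic mitophagy, had 37.4, 44.0, 44.1, 40.1 and 39.4 CPM in shDRP1 and 28.6, 35.8 and 38.0 CPM in shRandom libraries, in the same order. Only shDRP1 replicate 1 fell within the shRandom range, and the change was 0.26 (SE 0.09, adjusted p = 0.0136 by edgeR), with an adjusted p of 0.0510 under the replicate block. Bnip3, the paralog of Bnip3l, was at 75.2 ± 14.2 CPM (SD, n = 5) in shDRP1 and 73.0 ± 5.11 CPM (SD, n = 6) in shRandom libraries. Its interval was -0.17 to 0.25, and the sign turned when shDRP1 replicate 1 or 2 was left out. The ratio of Bnip3l to Pink1 was 1.24 to 1.78 in shDRP1 and 0.547 to 0.736 in shRandom libraries, so the order of these genes differed between the groups in every library.

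Of the 4 lysosome genes, Tfeb and Mcoln1 fell, and Lamp1 and Lamp2 did not pass the test. Tfeb, the transcription factor that activates lysosome and autophagy genes (chromosome 17, 47737030 to 47792419, plus strand), had 5.74, 4.41, 4.17, 4.52 and 5.88 CPM in shDRP1 libraries, against 7.19, 7.87 and 9.28 CPM at the lowest, the median and the highest in shRandom libraries. The groups did not overlap and the change was -0.70 (SE 0.12, adjusted p = 1.59e-04 by edgeR). Mcoln1, the calcium channel of the lysosome, had 9.34, 7.97, 8.19, 9.18 and 9.83 CPM in shDRP1 and 8.54, 11.6 and 12.6 CPM in shRandom libraries, ordered likewise. The change of -0.32 (SE 0.11, adjusted p = 0.0194 by edgeR) rested on the setting: it was lost with library totals (adjusted p = 0.0788), upper quartile factors (0.0738), the replicate block (0.0752), without shRandom replicate 2 (0.0515) and without shDRP1 replicate 2 and shRandom replicate 1 together (0.0527, all edgeR). Lamp1, a glycoprotein that lines the lysosome, had 682.4, 689.9, 769.2, 748.5 and 698.6 CPM in shDRP1 and 702.3, 733.1 and 772.1 CPM in shRandom libraries, again at the lowest, the median and the highest for the second group. The libraries were interleaved, and the interval of its log2 fold change was -0.14 to 0.07. Lamp2, its relative that also serves chaperone-mediated autophagy, was at 329.9 ± 31.0 CPM (SD, n = 5) and 321.9 ± 18.9 CPM (SD, n = 6) in shDRP1 and shRandom libraries, with an interval of -0.10 to 0.17. The end of Lamp1 overlaps Grtp1 on the opposite strand, which had 164 counts in shDRP1 and 4578 in shRandom libraries.

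TFEB and its relatives bind the hexamer CACGTG, most strongly within the longer CLEAR element, so promoters of the 41 genes were read for both. RefSeq windows of GRCm38.p6, from 250 bases before to 50 after a transcript start (the first listed window for each gene), were matched by symbol for 34 of the 41 genes. That start was within 1000 bases of the gene's annotated outer start for 29 of them, and farther off for Atg7, Atg14, Wipi2, Atg4a and Atg4b. No window was matched for Rb1cc1, Atg12 and Bnip3l, which rose, Becn1, Pik3c3 and Map1lc3a, which fell, or Atg16l1, which did not pass. The counts below therefore leave out these genes. CACGTG, which reads alike on both strands, was in 7 of the 34 windows (20.6%), against 7.24% of all 27025 gene windows. The full CLEAR element, which contains the hexamer and was searched on both strands, was in 0 of the 34 and in 0.359% of all. Among the 7 genes with the hexamer, Atg3, Atg7, Atg14 and Mcoln1 fell (each lost that call with library totals), and Atg5, Bnip3 and Lamp1 did not pass the test. Among the 27 without it 13 fell and 4 rose. The Atg7 and Atg14 windows lie at starts 27999 and 2215 bases inside their genes, and among the 29 nearer windows the hexamer was in 5 (17.2%), of which 2 belonged to genes that fell, Atg3 and Mcoln1. The E-box CAGCTG, preferred by myogenic factors such as MyoD and likewise the same on both strands, was in 8 of the 34 (23.5%) and in 16.1% of all windows. The antioxidant element TGACNNNGC, searched on both strands, was in 3 of the 34 (8.82%) and in 12.5% of all, and the ATF4 element TGATGCAAT, searched on both strands, in 0 of the 34 and in 0.207% of all. The windows of Mcoln1 and Atg3, which fell, and of Lamp1 and Atg5, which did not pass, are printed to show how differently the hexamer is placed, 5′ to 3′ on the plus strand with each CACGTG in capitals.
Mcoln1 (chr8:3500269-3500568): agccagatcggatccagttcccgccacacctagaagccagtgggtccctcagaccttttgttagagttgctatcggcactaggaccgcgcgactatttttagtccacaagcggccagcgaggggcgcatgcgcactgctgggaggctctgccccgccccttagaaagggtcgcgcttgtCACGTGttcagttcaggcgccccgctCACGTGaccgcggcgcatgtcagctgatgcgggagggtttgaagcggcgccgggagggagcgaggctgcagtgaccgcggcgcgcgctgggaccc
Atg3 (chr16:45158579-45158878): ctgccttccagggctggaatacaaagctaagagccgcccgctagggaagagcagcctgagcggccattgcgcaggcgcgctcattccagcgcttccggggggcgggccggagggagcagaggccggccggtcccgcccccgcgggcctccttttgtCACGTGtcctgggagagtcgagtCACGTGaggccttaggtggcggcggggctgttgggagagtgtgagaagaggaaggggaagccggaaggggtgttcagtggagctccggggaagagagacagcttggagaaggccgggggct
Lamp1 (chr8:13158911-13159210): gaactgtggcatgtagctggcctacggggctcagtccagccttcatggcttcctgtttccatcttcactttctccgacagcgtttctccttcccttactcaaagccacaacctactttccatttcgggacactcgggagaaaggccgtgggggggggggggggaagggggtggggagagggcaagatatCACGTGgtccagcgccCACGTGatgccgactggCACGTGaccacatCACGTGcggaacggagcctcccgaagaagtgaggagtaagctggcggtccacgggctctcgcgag
Atg5 (chr10:44268089-44268388): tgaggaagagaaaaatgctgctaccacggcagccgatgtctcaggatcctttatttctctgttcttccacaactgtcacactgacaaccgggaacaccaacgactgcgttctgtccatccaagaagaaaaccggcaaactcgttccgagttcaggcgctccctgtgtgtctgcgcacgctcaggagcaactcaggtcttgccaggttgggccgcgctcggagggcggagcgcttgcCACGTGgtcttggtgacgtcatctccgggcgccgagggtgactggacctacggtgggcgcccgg
Lamp1 has the hexamer 4 times within the last 61 bases before its start, Mcoln1 and Atg3 have it in a pair and Atg5 has it once. A match of letters describes the window and shows neither binding nor a cause.

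Spread within groups was small for most of the genes, with a median coefficient of variation of 10.3% in shDRP1 and 8.37% in shRandom libraries. It was above 20% in both groups for Ulk1, Atg2b, Nbr1 and Atg9a, the last with few counts. Ulk1 had 60.8, 71.0, 70.0, 53.5 and 41.4 CPM in shDRP1 libraries, against 36.7, 50.3 and 69.4 CPM at the lowest, the median and the highest in shRandom libraries. Nbr1 had 51.6, 74.2, 59.3, 42.4 and 32.5 CPM in shDRP1 and 31.0, 39.6 and 61.5 CPM in shRandom libraries, and Atg2b had 11.9, 22.6, 15.6, 11.3 and 8.38 and 11.4, 14.5 and 20.4 CPM, given in the same way. In all 3 genes shDRP1 replicate 2 and shRandom replicate 1 were the highest of their groups and shDRP1 replicate 5 was the lowest of its group. The first pair are the libraries that lay apart on the second principal component, where shDRP1 replicate 5 was at the opposite end. Without that pair, 7 genes rose and 18 fell, and Atg4a and Mcoln1 no longer passed. These genes were singled out after their values were seen.

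**Figure D4:**
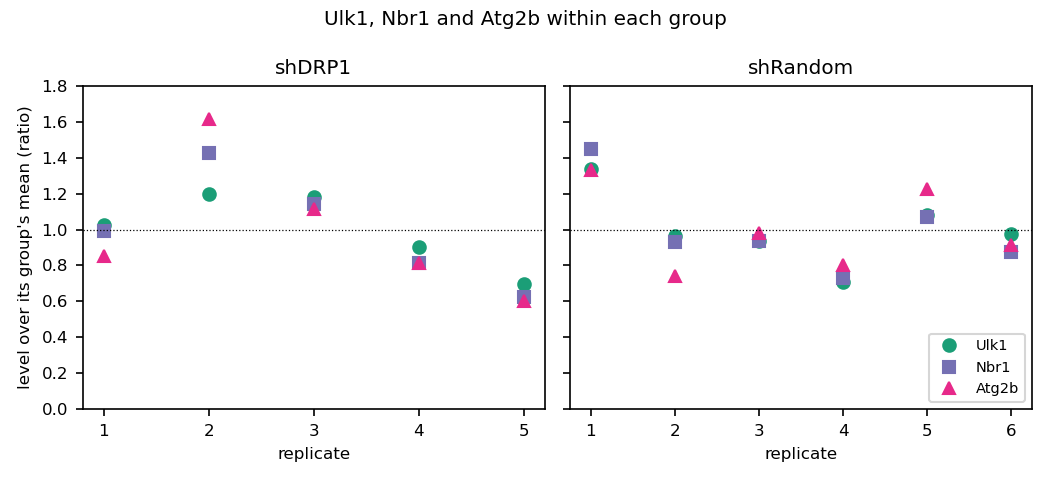
Each point is the level of Ulk1, Nbr1 or Atg2b in 1 library divided by the mean of its own group, so 1 is the group mean, with the 5 shDRP1 libraries left and the 6 shRandom libraries right. The 3 genes are at 1.20 to 1.62 in shDRP1 replicate 2, at 0.600 to 0.697 in shDRP1 replicate 5 and at 1.33 to 1.45 in shRandom replicate 1.

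The genes lie on many chromosomes, and 4 of them are on chromosome 8, of which a stretch was lowered in shDRP1 libraries. Between 75 and 100 Mb, bounds read from bins of 5 Mb after the values were seen, 120 of 152 tested genes fell and 13 rose. Mcoln1 (chromosome 8, 3500457 to 3515232, plus strand), Lamp1 (chromosome 8, 13159161 to 13175338, plus strand), Gabarapl2 (chromosome 8, 111940703 to 111953612, plus strand) and Map1lc3b (chromosome 8, 121590361 to 121598760, plus strand) all lie outside it. Of the 20 tested genes flanking Gabarapl2 in order along the chromosome (111270944 to 116941507), 16 rose and 1 fell. Gabarapl2 itself fell, a call that was lost with library totals and upper quartile factors. Among 20 such flanking genes of Lamp1 4 rose and 11 fell, and among 20 of Map1lc3b 10 rose and 6 fell. Mcoln1, near the start of the chromosome, had 14 flanking genes, of which 6 rose and 5 fell. Over all 13025 genes tested, 33.9% rose and 33.3% fell.

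Beyond the 41 genes, lists of neighbouring functions showed larger single changes. Counts of genes that rose or fell in these 6 lists have as background the 33.9% and 33.3% of all 13025 genes tested. With library totals, 5207 of all tested genes rose and 3751 fell. Counts near such shares say little about a list. Of 14 other core autophagy genes, 2 rose and 6 fell, with a median log2 fold change of -0.25. Sh3glb1, which binds Becn1 through Uvrag and bends membranes, was at 495.6 ± 14.0 CPM (SD, n = 5) in shDRP1 and 2167 ± 53.0 CPM (SD, n = 6) in shRandom libraries, a change of -2.13 (SE 0.05, adjusted p = 7.35e-14 by edgeR). Wdr45, a relative of the WIPI proteins, changed by -0.87 (SE 0.11, adjusted p = 4.12e-06 by edgeR). Atg9b, the sparse paralog of Atg9a, had 7 counts in all shDRP1 and 215 in all shRandom libraries, so the size of its fall is uncertain. Of 14 genes of fusion between autophagosome and lysosome, 3 rose and 2 fell (median 0.00). The small GTPase Rab7 changed by -0.43 (SE 0.05, adjusted p = 6.19e-06 by edgeR), the SNARE Ykt6 by 0.34 (SE 0.07, adjusted p = 3.37e-04 by edgeR) and the tethering subunit Vps39 by -0.34 (SE 0.07, adjusted p = 9.12e-04 by edgeR).

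Of 20 other selective autophagy genes tested, 1 rose and 10 fell (median -0.26), or 3 rose and 8 fell with library totals. The reticulum receptors Rtn3 and Retreg1 went in opposite directions, by 0.80 (SE 0.05, adjusted p = 2.56e-09 by edgeR) and -0.70 (SE 0.05, adjusted p = 8.01e-09 by edgeR), and the receptor Calcoco1 was at 136.5 ± 21.9 CPM (SD, n = 5) in shDRP1 and 309.5 ± 25.1 CPM (SD, n = 6) in shRandom libraries (adjusted p = 9.05e-08, edgeR). Lysosomal hydrolases and membrane proteins were mostly higher, 16 of 28 up and 9 down, with a median of 0.29. Their summed level was nonetheless lower, 5650.1 to 7133 CPM in shDRP1 and 8728 to 9848 CPM in shRandom libraries. The abundant membrane protein Cd63 alone was at 2326 ± 134.6 CPM (SD, n = 5) in shDRP1 and 4324 ± 220.5 CPM (SD, n = 6) in shRandom libraries. The sulfatase Arsa rose by 1.35 (SE 0.12, adjusted p = 1.39e-07 by edgeR) and the cathepsin Ctsf fell, with a change of -3.67 (SE 0.13, adjusted p = 6.40e-12 by edgeR). Of 15 genes of the lysosomal proton pump, 3 rose and 8 fell (median -0.24; 5 and 7 with library totals), among them Atp6ap2, with a change of -1.07 (SE 0.08, adjusted p = 3.77e-08 by edgeR), Atp6v1e1, with -0.63 (SE 0.06, adjusted p = 2.33e-07 by edgeR), and Atp6v1d, with -0.67 (SE 0.06, adjusted p = 2.90e-07 by edgeR).

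Of 27 upstream regulators, 7 rose and 11 fell (median -0.08), or 9 rose and 10 fell with library totals. The kinase Mtor, which restrains the ULK1 complex, was at 16.7 ± 0.831 CPM (SD, n = 5) in shDRP1 and 31.1 ± 2.01 CPM (SD, n = 6) in shRandom libraries. Its partner Rptor was at 17.0 and 39.8 CPM, and its inhibitor Deptor at 114.0 and 618.0 CPM in shDRP1 and shRandom libraries. Log2 fold changes were -0.90 (SE 0.07, adjusted p = 3.92e-08 by edgeR), -1.23 (SE 0.08, adjusted p = 2.38e-09 by edgeR) and -2.44 (SE 0.08, adjusted p = 2.25e-12 by edgeR), with no overlap of libraries for any of the 3 genes. Mlst8, another partner of Mtor, went the other way, by 0.53 (SE 0.11, adjusted p = 8.03e-04 by edgeR), with overlapping libraries.

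**Figure D5:**
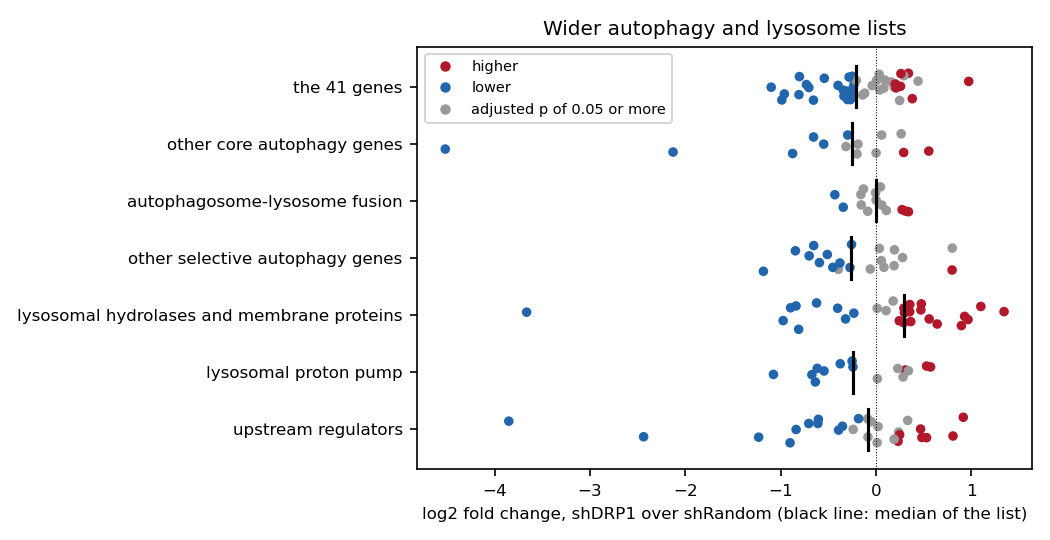
Each point is the log2 fold change of 1 tested gene, shDRP1 over shRandom libraries, in the 41 genes and in 6 lists of neighbouring functions, red where higher, blue where lower and grey where not past an adjusted p of 0.05; the black line is the median of the list and vertical position within a row has no meaning. The median is 0.29 for lysosomal hydrolases and membrane proteins and -0.20 for the 41 genes, and the points beyond -3 are Atg9b, Ctsf and Rragd, with 7, 81 and 9 counts in all shDRP1 libraries.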

How the data were processed

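Libraries were made from total RNA with a Quant-Seq 3′ kit and read forward, per the labels' protocols; sample and series texts differ on the read length. The BlueBee software did the alignment, per the series text, while no source used here gives the aligner, counter, strand setting or annotation. Builds GRCm38 and mm10 and DESeq2 version 1.22.2 stand in the submitters' processing notes. A first deposited table holds raw counts, whole numbers per gene. The second table deposited by the authors holds a signal, each count divided by 1 size factor per library (0.786 to 1.34), and served only to check that scaling. Symbols were matched for 15080 of 15113 identifiers. Positions came from GENCODE M21 on GRCm38.

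The main test was edgeR version 4.0.16 (R version 4.3.3): filterByExpr, TMM, robust quasi-likelihood fit with the group as its only term, and Benjamini-Hochberg adjustment over 13025 genes. Each standard error is the absolute log2 fold change over the root of F. Intervals are the log2 fold change ± 1.96 SE, somewhat narrower than 95% intervals of the test. For Atg10 the interval was -0.40 to -0.0044, while the unadjusted p was 0.0649 by edgeR. The test was checked on simulated counts. Alternatives were other scalings and filters, DESeq2 version 1.42.0, limma-voom version 3.58.1, no robust moderation, the replicate number as a block, stricter thresholds, thinned counts and left-out libraries. No 2 libraries were repeats of each other (chi-square over degrees of freedom within groups 5.30 to 61.6). Copies and overlaps at 3′ ends were sought in the last 200 bases of transcripts (at least 95% identity over 100 bases) and the last 1000 bases of genes. All 41 genes are named; the 3 genes of each step, and of each further list, with the smallest adjusted p are given with values, and Gm13961, Kri1, Zcchc14, Grtp1 and Rragd were named after their values were seen; 1 gene of a further list is not reported here. The genes, lists and alternatives were chosen with earlier results of these data known.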

Additional observations from a re-analysis of the deposited data

Results flagged for a closer look

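A library far from the rest of its group was found in 5 of the 82 sets of values (41 genes in each group) by Dixon's test, which flags about 1 set in 20 by chance. Rb1cc1 had 342.7 CPM in shDRP1 replicate 3, below the 439.5 to 466.7 CPM of the other shDRP1 libraries. Atg13 had 26.7 CPM in the same library, above the 24.9 to 25.4 CPM of the others of its group. Atg4d had 13.3 CPM in shDRP1 replicate 5, above the other shDRP1 libraries at 8.43 to 9.28 CPM. In shRandom replicate 1, Atg13 had 36.3 CPM, above 29.0 to 31.5 CPM in the other shRandom libraries, and Tax1bp1 had 295.0 CPM, below 346.2 to 367.1 CPM. Rb1cc1, Atg13, Atg4d and Tax1bp1 kept their call and direction when these libraries were left out.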

How the results depend on the processing

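Counts of 7 genes higher and 20 lower moved by more than 1.5 times under 4 settings. Genes lower were 11 with library totals alone, 13 with upper quartile factors, 13 at an adjusted p of 0.01 and 1 when a 2-fold change was also asked for, where 0 were higher. The median log2 fold change was -0.11 with library totals and -0.12 with upper quartile factors, against -0.20, and leaving out 1 library at a time gave -0.22 to -0.15, with 7 to 8 genes higher and 17 to 20 lower. Without the 4 genes on chromosome 8, 7 were higher and 18 lower. Whether same-numbered libraries share a culture or batch is not given. Their deviations from the group means correlated at -0.18 to 0.36, and those of differently numbered libraries at -0.60 to 0.52. So few correlations cannot settle whether the libraries are paired. With the replicate number as a block on replicates 1 to 5, 6 genes were higher and 16 lower, against 7 and 19 in these libraries without the block (a fit added after seeing the data), and Pik3c3, Wipi2, Atg7, Fundc1 and Mcoln1 lost their call. DESeq2 and limma-voom each gave 7 and 20. Signs turned only for genes that did not pass: Gabarapl1 (-0.0092 with median-ratio factors, -0.014 with DESeq2, -0.0027 with no low-count filter, -0.0024 with limma-voom, and -0.062 to 0.076 with 1 library left out), Lamp1 (0.063 with library totals, 0.048 with upper quartile factors), and, with 1 library left out, Bnip3 (-0.028 to 0.13), Lamp2 (-0.0028 to 0.084) and Atg2b (-0.38 to 0.00036). Dnm1l passed under all settings run. The causes of lost and gained calls were not tested. Low counts limit what can be said of Atg9a, Atg9b and Rragd.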
